A study of Homo sapiens with 9 samples.

Results

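Expression of 10 genes that encode secreted matrix proteins other than collagens was followed across blood-forming cells made from the established human embryonic stem cell line H1. The genes were POSTN, LUM, DCN, FN1, FBN1, SPARC, BGN, LOX, HAPLN1 and TGFBI, taken by symbol from a deposited count table of 21229 genes. All 10 were in the table and all 10 passed the filter on low counts, which some of them did only through the CD90+ libraries. They were chosen with expression results from these same libraries known, across all 3 groups. Their levels and differences are therefore given as a description, with no p-value, and counts of calls among them are set beside those of all genes without being read as a result.

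The 9 strand-specific RNA libraries fell into 3 groups of 3. The CD38+ control group held cells positive for the surface antigen CD38 with the genotype control. The CD90+ control group held cells of the same genotype that carried CD90 (encoded by THY1), and the GATA2 overexpression CD90+ group held CD90+ cells that overexpressed the haematopoietic transcription factor GATA2. All groups shared the H1 origin and the differentiation to haematopoietic cells. The sources used here do not give the day of differentiation, the way in which GATA2 was overexpressed, the number of clones or the use of separate cultures, so p-values measure only the spread between these libraries, which may be technical. No CD38+ group with GATA2 overexpression was analysed here.

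The extracellular matrix is the protein and sugar scaffold around cells. Small leucine-rich proteoglycans such as lumican, decorin and biglycan bind collagen fibrils, fibronectin and fibrillin form fibres of their own, and lysyl oxidase crosslinks collagen and elastin. Fibroblasts and other stromal cells are the classical source of most of these proteins, while macrophages also make fibronectin and TGFBI, and megakaryocytes store SPARC and fibronectin in their granules. In the bone marrow such matrix surrounds and anchors blood stem cells.

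Counts per library ranged from 37500192 to 47261093. Levels are counts per 1000000 reads (CPM), with library sizes adjusted by edgeR's TMM factors, and are given as mean ± SD with n = 3. GATA2 averaged 569 ± 16.3 CPM in the CD38+ libraries, 87.3 ± 1.93 in the CD90+ controls and 376 ± 12.8 where it was overexpressed. THY1 had 0 counts in the CD38+ libraries, against 4.43 ± 0.632 CPM in CD90+ control cells, and CD38 was 27.7-fold higher in CD38+ than in CD90+ control cells. By these 3 genes no library went against its label.

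Setting CD90+ against CD38+ control cells asks how the CD90+ fraction differs from the CD38+ fraction. Of the 10 matrix genes, 9 were higher in CD90+ control cells, and the TGFBI libraries overlapped. POSTN and HAPLN1 were at or near 0 in CD38+ cells, DCN and BGN were below 1 CPM there, and SPARC and TGFBI were abundant in both fractions. In bulk RNA, fewer cells of a type and less RNA per cell cannot be told apart. By the edgeR quasi-likelihood test 9 of the 10 genes were called higher at a Benjamini-Hochberg adjusted p under 0.05, where 41.1% of the 16232 genes tested were called higher. None was called lower, against 39.3% of all genes. The libraries of the groups did not overlap for 9 of the 10, as for 82.8% of all genes. The choice of genes used this contrast, so nothing is read from these counts.

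Summed over the 10 genes, the level was 330 ± 6.60 CPM for CD38+ cells, 1176 ± 8.97 CPM for control CD90+ cells and 689 ± 8.02 CPM for CD90+ cells with GATA2 overexpression. The 10 genes took 0.137% of all counts in CD90+ control cells, 0.0675% with GATA2 overexpression and 0.0290% in CD38+ cells. They were thus a small part of the counts in every group, which says nothing of other matrix genes. Between genes, levels were compared only per kilobase of merged exons. On that scale SPARC led in every group, with 65.8% of the 10-gene total for CD38+ cells, 47.7% for control CD90+ cells and 63.2% under GATA2 overexpression. The rest was made up differently in each group. TGFBI was next in CD38+ cells with 26.7%, and LUM took that place in CD90+ control cells with 35.5% and in GATA2 overexpression cells with 19.6%. LOX went from 2.24% in CD90+ control to 10.7% in GATA2 overexpression cells.

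Several neighbours in this order did not differ beyond the spread of their libraries. These were FN1 and LOX, BGN and FBN1, and HAPLN1 and POSTN in CD38+ cells, and POSTN and BGN in CD90+ control cells. With GATA2 overexpression they were TGFBI and DCN, BGN and POSTN, and POSTN and FN1. FBN1 came last in both CD90+ groups, at 0.442 and 0.246 CPM per kilobase.

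**Figure D1:**
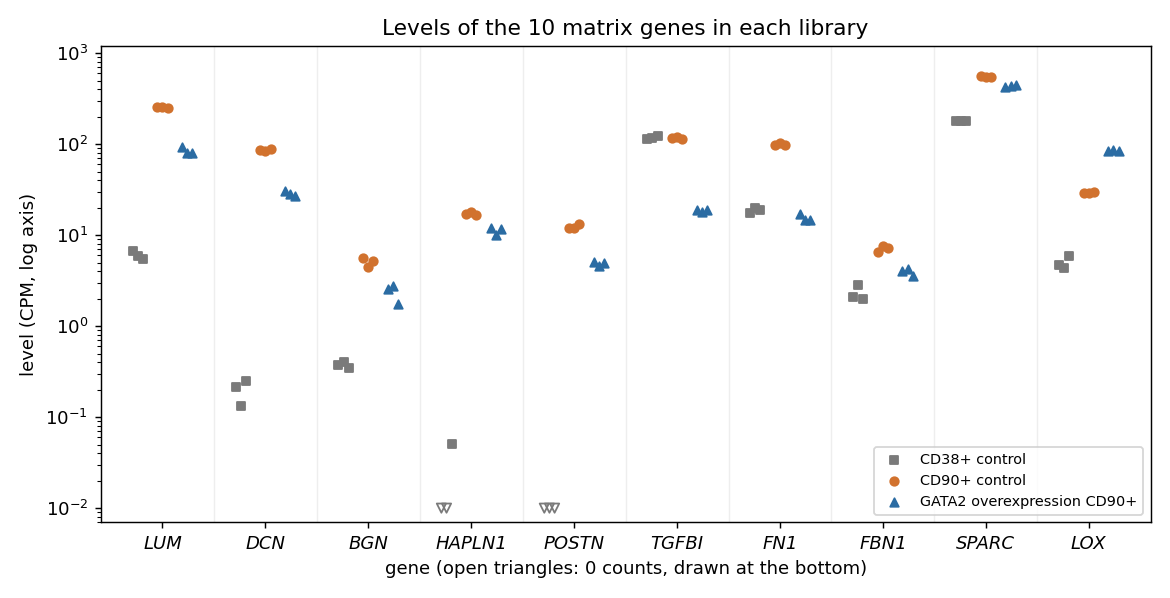
Level of each of the 10 genes (CPM, log axis) in every library, with squares for CD38+ control, circles for CD90+ control and filled triangles for GATA2 overexpression CD90+ cells. The CD90+ control libraries lie above the GATA2 overexpression libraries for every gene except LOX, and POSTN has 0 counts in all 3 CD38+ libraries.

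**Figure D2:**
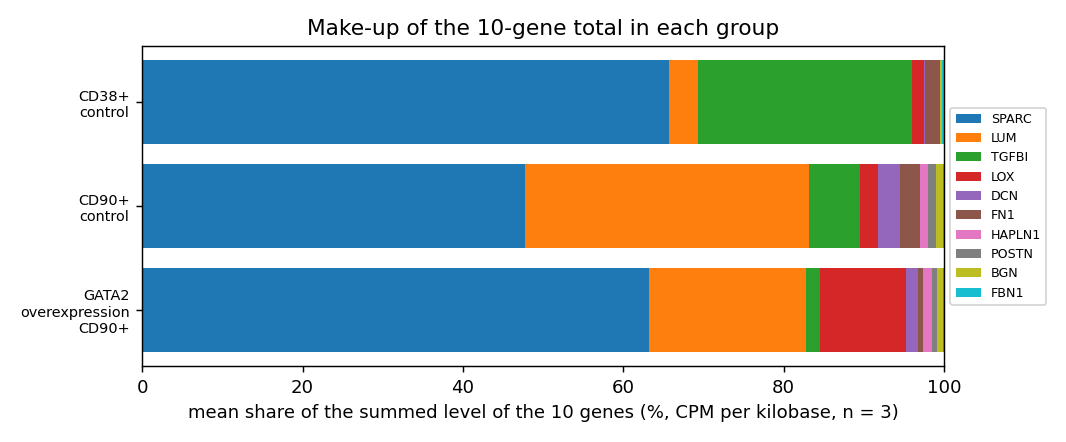
Mean share of each gene in the summed level of the 10 genes (%, CPM per kilobase of merged exons, n = 3) in each group. LUM takes 3.53% of the bar for CD38+ cells, 35.5% for control CD90+ cells and 19.6% under GATA2 overexpression.

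The small leucine-rich proteoglycans were LUM, DCN and BGN. LUM (lumican, ENSG00000139329.4, chromosome 12, 91102629 to 91111831, minus strand, GRCh38), which spaces collagen fibrils, was at 6.67, 5.83 and 5.51 CPM in the 3 CD38+ control libraries. It was at 255, 254 and 253 CPM in CD90+ control libraries and at 93.5, 79.3 and 79.5 CPM with GATA2 overexpression. The 3 groups did not overlap, and the CD90+ control libraries were 42.3-fold above the CD38+ libraries (log2 fold change 5.40, SE 0.070). With GATA2 overexpression LUM was 3.02-fold lower than in control CD90+ cells (log2 fold change -1.59, SE 0.050).

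DCN (decorin, ENSG00000011465.16, chromosome 12, 91140484 to 91183123, minus strand), which binds fibrils and TGF-beta, lies next to LUM. The gap is 28652 bases, with no other gene of the count table in it. DCN had 8, 5 and 10 counts in the CD38+ libraries, or 0.199 ± 0.0595 CPM. Its mean was 86.1 ± 2.62 CPM for the CD90+ controls and 28.7 ± 2.02 CPM under GATA2 overexpression. DCN was thus 424-fold higher in CD90+ than in CD38+ control cells, and 3.003-fold lower with GATA2 overexpression (log2 fold change -1.59, SE 0.056).

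The neighbours LUM and DCN kept their ratio between the CD90+ groups and not in CD38+ cells. Per kilobase, LUM was 12.6 ± 0.413 times DCN in CD90+ control cells and 12.5 ± 0.405 times DCN with GATA2 overexpression. The size of this ratio depends on the length taken for DCN, 12847 bases of merged exons against 7156 in its longest transcript. Its likeness between the groups does not. In CD38+ cells the ratio was 138 ± 46.3, ranging from 94.0 to 186, on few DCN counts. EPYC, a further proteoglycan gene near them, had 0 counts in all 9 libraries.

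BGN (biglycan, ENSG00000182492.15, chromosome X, 153494939 to 153509554, plus strand), a close relative of decorin, was per kilobase the lowest of the 3 in both CD90+ groups. Its mean was 0.375 ± 0.0253 CPM for CD38+ cells, from 43 counts in all, 5.12 ± 0.581 for the CD90+ controls and 2.37 ± 0.528 under GATA2 overexpression. Its CD90+ libraries stood apart, at 5.62, 4.48 and 5.25 CPM in control and 2.58, 2.76 and 1.77 CPM with GATA2 overexpression. BGN was 13.6-fold higher in CD90+ than in CD38+ control cells and 2.16-fold lower with GATA2 overexpression (log2 fold change -1.11, SE 0.18).

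HAPLN1 (ENSG00000145681.10, chromosome 5, 83637805 to 83721613, minus strand) encodes a link protein that fixes versican and aggrecan to hyaluronan. It had 0, 0 and 2 counts in the CD38+ libraries. It was at 17.0, 18.0 and 16.8 CPM in CD90+ control libraries and at 11.9, 10.04 and 11.6 CPM with GATA2 overexpression. The ratio of CD90+ to CD38+ control cells was 994, with an exact 95% counting interval of 275 to 8216. With GATA2 overexpression HAPLN1 was 1.54-fold lower than in control CD90+ cells (log2 fold change -0.63, SE 0.12).

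VCAN, the versican gene, is the neighbour of HAPLN1 on chromosome 5 (83471465 to 83582303, plus strand) and was not among the 10 genes. The gap between them is 55501 bases, with no gene of the table in it. VCAN ran the other way between the control groups, and like HAPLN1 it was lower with GATA2 overexpression. Its mean was 183 ± 0.594 CPM for CD38+ cells, 20.5 ± 0.953 for the CD90+ controls and 2.18 ± 0.191 under GATA2 overexpression. It fell 8.89-fold from CD38+ to CD90+ control cells (edgeR adjusted p = 1.33e-19) and 9.41-fold with GATA2 overexpression (adjusted p = 7.33e-17). Per kilobase, HAPLN1 was 1.80 ± 0.131 times VCAN in CD90+ control cells and 11.03 ± 1.83 times VCAN with GATA2 overexpression. The core proteoglycan and its link protein were therefore highest in different fractions.

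The other link protein genes were scarce. HAPLN3 rose 3.98-fold from CD38+ to CD90+ control cells (1.29 ± 0.385 to 5.15 ± 0.422 CPM, edgeR adjusted p = 1.11e-07) and fell 2.80-fold with GATA2 overexpression (adjusted p = 3.02e-06). HAPLN2 had 0, 64 and 12 counts in the CD38+ control, CD90+ control and GATA2 overexpression groups. HAPLN4 had 1 count in CD38+ control and 2 in CD90+ control libraries, under the floor of 3 counts.

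POSTN and TGFBI encode relatives that share fasciclin domains. POSTN (periostin, ENSG00000133110.14, chromosome 13, 37562583 to 37598844, minus strand) binds integrins and collagen. It had 0 counts in all 3 CD38+ libraries, which allows up to 0.0261 CPM at 3 counts over the group. It was at 11.9, 12.02 and 13.2 CPM in CD90+ control libraries and at 5.09, 4.64 and 4.89 CPM with GATA2 overexpression. POSTN was at least 473-fold higher in CD90+ than in CD38+ control cells, and 2.54-fold lower with GATA2 overexpression (log2 fold change -1.34, SE 0.13).

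TGFBI (ENSG00000120708.16, chromosome 5, 136028895 to 136063818, plus strand), an adhesion protein induced by TGF-beta, had another pattern. It was at 114, 118 and 122 CPM in CD38+ control libraries and at 116, 121 and 113 CPM in CD90+ control libraries. These groups overlapped, with a log2 fold change of -0.01 (SE 0.036). The sign depends on the scaling, as the log2 fold change was 0.40 with library size only, where all genes moved up by a median of 0.41. With GATA2 overexpression TGFBI was at 19.1, 18.1 and 19.0 CPM, 6.23-fold below control CD90+ cells and 6.29-fold below CD38+ cells.

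The stretches upstream of POSTN, TGFBI and LOX are shown because these genes had 3 different patterns over the groups. The sequences are from RefSeq (GRCh38.p14), in the direction of the gene. They end where annotated exons begin, and lie at chr13:37598845-37599018 on the minus strand, chr5:136028738-136028894 on the plus strand and chr5:122078361-122078509 on the minus strand. Capitals mark matches to TATAAA, to TGANTCA or to a GATA hexamer (AGATAA or TGATAA, and also AGATAG or TGATAG) on either strand.
POSTN: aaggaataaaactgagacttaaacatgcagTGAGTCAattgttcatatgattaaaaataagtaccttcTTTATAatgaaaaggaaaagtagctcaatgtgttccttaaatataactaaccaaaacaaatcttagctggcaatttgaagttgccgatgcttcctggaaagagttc
TGFBI: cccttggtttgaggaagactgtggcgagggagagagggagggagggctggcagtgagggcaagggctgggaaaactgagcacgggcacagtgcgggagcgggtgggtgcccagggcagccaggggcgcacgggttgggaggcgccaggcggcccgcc
LOX: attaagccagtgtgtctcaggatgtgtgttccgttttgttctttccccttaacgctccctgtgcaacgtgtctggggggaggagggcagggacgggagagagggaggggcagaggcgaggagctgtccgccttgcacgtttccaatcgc

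In these 3 stretches only POSTN has capitals, with TGAGTCA and TATAAA read on the other strand. The 250 bases before the RefSeq start were at hand for 8 of the 10 genes. RefSeq and GENCODE place the start differently, so that for SPARC, FBN1 and HAPLN1 this whole window lies inside the GENCODE gene, and for the other 5 a part of it does. Of these, 1 (SPARC) held a GATA hexamer, against 22.9% of 27305 promoters, 1 (POSTN) held TATAAA, against 11.1%, and 1 (POSTN) held TGANTCA, against 6.60%. The POSTN window held 2 matches to TATAAA. Of these, the match nearer the RefSeq start reads TATAAA in the direction of the gene. It lies inside the GENCODE gene and so is not in the printed stretch. All these matches describe the windows and no binding was measured.

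FN1 and FBN1 encode fibre-forming glycoproteins. FN1 (fibronectin, ENSG00000115414.18, chromosome 2, 215360440 to 215436172, minus strand), the main ligand of the integrins that hold progenitors to stroma, was at 17.6, 19.8 and 19.0 CPM in CD38+ control libraries. It was at 98.9, 102 and 98.8 CPM in CD90+ control libraries and at 17.0, 14.8 and 14.5 CPM with GATA2 overexpression. The CD90+ control libraries thus stood alone, 5.31-fold above CD38+ cells and 6.46-fold above GATA2 overexpression cells (log2 fold change -2.69, SE 0.059). Under GATA2 overexpression FN1 stood at 15.5 ± 1.36% of its mean in control CD90+ cells.

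FBN1 (fibrillin-1, ENSG00000166147.13, chromosome 15, 48408306 to 48645849, minus strand), the backbone of microfibrils, averaged 2.30 ± 0.469 CPM for CD38+ cells, 7.09 ± 0.523 for the CD90+ controls and 3.95 ± 0.368 under GATA2 overexpression. The 3 groups did not overlap, with ranges of 1.98 to 2.83, 6.54 to 7.58 and 3.56 to 4.29 CPM. Its paralogue FBN2, the fibrillin of embryonic tissue, was highest in CD38+ cells. FBN2 was at 41.9 ± 1.55, 22.5 ± 1.35 and 9.52 ± 1.57 CPM in the same order, lower in CD90+ than in CD38+ control cells by 1.86-fold (edgeR adjusted p = 2.19e-08) and lower with GATA2 overexpression by 2.36-fold (adjusted p = 1.20e-09). Per kilobase FBN2 exceeded FBN1 in every group, 22.8 ± 3.88 times for CD38+ cells, 3.89 ± 0.515 times for the CD90+ controls and 2.93 ± 0.410 times under GATA2 overexpression.

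SPARC (osteonectin, ENSG00000113140.10, chromosome 5, 151661096 to 151687165, minus strand), a collagen-binding glycoprotein that modulates adhesion, was per kilobase the most abundant of the 10 genes. It was at 178, 180 and 181 CPM in CD38+ control libraries, 555, 550 and 540 CPM in CD90+ control libraries and 426, 431 and 447 CPM with GATA2 overexpression. The groups did not overlap, and the difference with GATA2 overexpression was the smallest of the 10, at 1.26-fold lower (log2 fold change -0.33, SE 0.024). Its relative SPARCL1 had 0, 43 and 9 counts in the 3 groups, too few to be tested.

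LOX (lysyl oxidase, ENSG00000113083.13, chromosome 5, 122063195 to 122078360, minus strand) was the only gene of the 10 with its highest level in GATA2 overexpression cells. The CD38+ libraries had 4.65, 4.38 and 5.83 CPM, the CD90+ controls 29.2, 29.3 and 30.1 CPM, and the GATA2 overexpression libraries 83.8, 86.4 and 83.4 CPM. The groups did not overlap. LOX was 5.94-fold higher in CD90+ than in CD38+ control cells and a further 2.86-fold higher with GATA2 overexpression (log2 fold change 1.52, SE 0.059). LOX exons overlap SRFBP1 on the opposite strand, and the use of strand in counting is not given in the sources used here. Reads from the shared exon stretches therefore cannot be told apart, and how many there were was not measured. SRFBP1 itself rose 1.37-fold with GATA2 overexpression, from 21.9 ± 1.12 to 30.1 ± 1.03 CPM (edgeR adjusted p = 5.91e-06).

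The paralogues of LOX, which act on the same substrates, were divided. LOXL1, the enzyme of elastic fibres, also rose with GATA2 overexpression, 2.34-fold from 12.3 ± 1.23 to 28.8 ± 1.83 CPM (edgeR adjusted p = 9.72e-10), and LOXL3 rose 1.34-fold (adjusted p = 4.14e-07). LOXL2 and LOXL4 fell, 2.69-fold and 2.09-fold (adjusted p = 1.29e-05 and 3.06e-04 by edgeR). Between CD90+ and CD38+ control cells LOXL2 rose 5.70-fold and LOXL1 1.52-fold, while LOXL3 fell 1.30-fold, a direction that turned with library size only (log2 fold change 0.03). LOXL4 was at 2.17 ± 0.329 against 2.67 ± 0.455 CPM and was not called (adjusted p = 0.178 by edgeR).

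**Figure D3:**
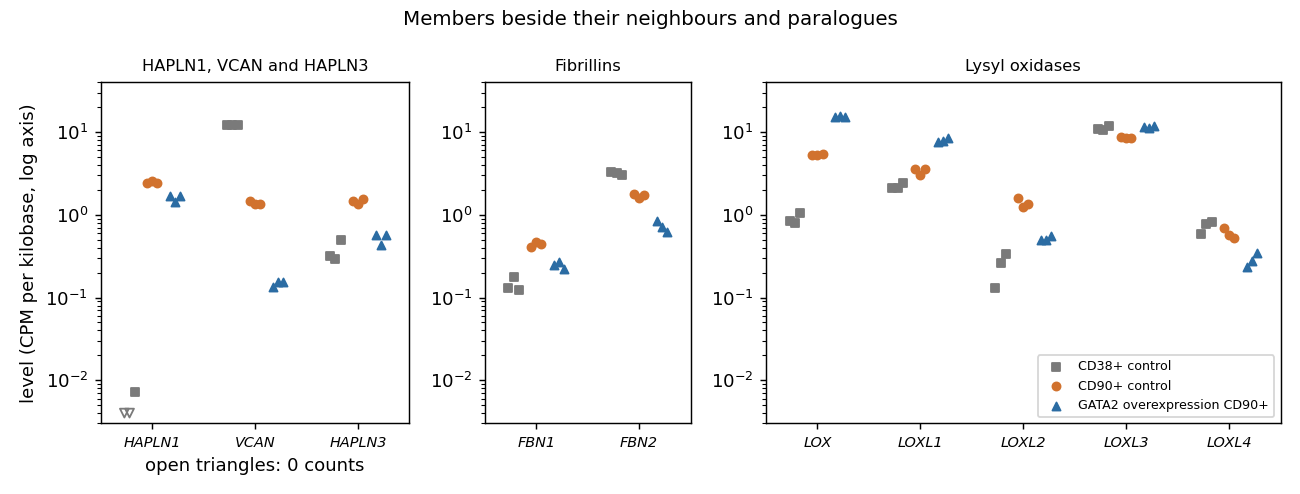
Levels (CPM per kilobase, log axis) in every library of HAPLN1 beside VCAN and HAPLN3, of FBN1 beside FBN2 and of LOX beside LOXL1 to LOXL4. VCAN and FBN2 are highest in the CD38+ control libraries (squares), HAPLN1 and FBN1 in the CD90+ control libraries (circles), and LOX and LOXL1 in the GATA2 overexpression libraries (triangles).

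Setting GATA2 overexpression against control within CD90+ cells asks what goes with added GATA2 in that fraction. Of the 10 matrix genes, 9 were lower with GATA2 overexpression and LOX was higher. By edgeR's adjusted p, 9 were called lower, where 39.6% of all genes tested were, and 1 was called higher, against 38.0% of all genes. The libraries did not overlap for 10 of the 10 genes, against 80.4% of all genes. This contrast was also known when the genes were chosen. Without documented separate cultures, added GATA2 and a difference between cultures cannot be told apart.

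As a share of the mean control CD90+ level, values with GATA2 overexpression ranged from 15.5 ± 1.36% for FN1 to 286 ± 5.42% for LOX. Each SD covers the GATA2 overexpression libraries only and leaves out the spread of the control libraries. TGFBI was at 16.1 ± 0.464%, within the spread of FN1. LUM, DCN and POSTN followed, at 33.1 ± 3.21%, 33.3 ± 2.35% and 39.4 ± 1.84%, and were not set apart from BGN, whose libraries spread widely. BGN, FBN1, HAPLN1 and SPARC were at 46.3 ± 10.3%, 55.7 ± 5.20%, 64.8 ± 5.84% and 79.3 ± 1.99%. The 9 lower genes thus differed widely in the size of the difference.

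**Figure D4:**
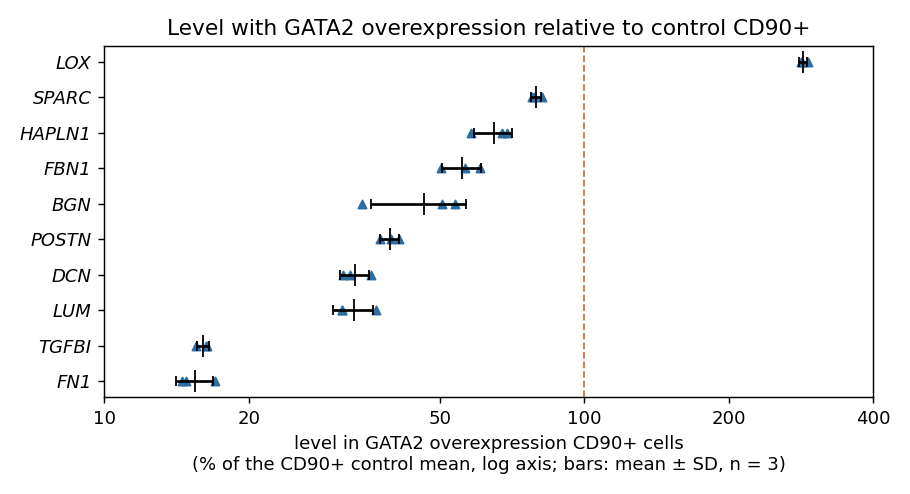
Level of each gene in the 3 GATA2 overexpression CD90+ libraries as a percentage of its mean in control CD90+ cells (log axis), with triangles for libraries and bars for mean ± SD. FN1 and TGFBI sit near 16%, SPARC at 79.3%, and LOX alone lies above the dashed line at 100%, at 286%.

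The comparison of GATA2 overexpression CD90+ with CD38+ control cells shares its samples with the other comparisons. By edgeR's adjusted p, 8 of the 10 genes were called higher (43.3% of all genes) and 2 lower (39.9% of all genes), and the libraries did not overlap for 10 of the 10 genes (83.0% of all genes). The lower genes were TGFBI, and FN1, which was 1.22-fold lower (log2 fold change -0.28, SE 0.063). FN1 was not called with library size only (log2 fold change -0.12). LUM, DCN, BGN, LOX and SPARC remained 14.0-fold, 141-fold, 6.29-fold, 17.0-fold and 2.42-fold above CD38+ cells. POSTN was at least 187-fold higher, and the ratio for HAPLN1 was 644 (exact 95% counting interval 178 to 5320).

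The pattern of each gene over the 9 libraries was compared with 10620 genes of at least 5 CPM on average, as the root mean square difference of centred log2(CPM + 0.5). The added 0.5 blurs differences among levels below 0.5 CPM, where POSTN, HAPLN1, DCN and BGN lay in CD38+ cells. POSTN was at 0 CPM there and MXRA8 at 0.357 CPM, so folds can differ between genes of close pattern. LUM was most like CYR61 and CTGF, matricellular genes that respond to growth factors and stretch, at 0.10 and 0.17, and AFP, the fetal liver protein alpha-fetoprotein, at 0.22. DCN was most like FRZB, a secreted Wnt inhibitor, at 0.24, COL3A1, a fibrillar collagen, at 0.36, and IGF2, a growth factor, at 0.36. COL3A1 averaged 1.49, 399 and 80.0 CPM for CD38+ cells, CD90+ controls and GATA2 overexpression. POSTN was most like MXRA8, a matrix remodelling-associated adhesion protein, at 0.14, PTPRF, a receptor phosphatase, at 0.15, and CLDN4, a tight junction protein of epithelia, at 0.16. The nearest genes were thus of several kinds, and some are among the hepatic and epithelial markers.

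For TGFBI the nearest were SLC35E4 (0.09), TIGAR, a regulator of glycolysis (0.11), and MNDA, a nuclear antigen of myeloid cells (0.11). FN1 was closest to CD74, the class II-associated invariant chain (0.14), at 158, 934 and 118 CPM, then HDAC9, a histone deacetylase (0.16), and RCN3 (0.17). HAPLN1 was most like PTN, a heparin-binding growth factor (0.12), HAND1, a transcription factor of heart and extraembryonic mesoderm (0.17), and APOA2, an apolipoprotein (0.18). SPARC was closest to IFT140 (0.06), ZEB1, a transcription factor of mesenchymal cells (0.06), and RASSF8 (0.07). LOX was closest to AADAT (0.12), followed by ARHGAP22 (0.15) and CTHRC1, a secreted matrix protein (0.20). For BGN they were SLPI, a protease inhibitor (0.11), CPED1 (0.14) and FZD2, a Wnt receptor (0.17), and for FBN1 they were PEAK1, ID3 and STARD8 (0.14 each). Points of a group share their cells and preparation, so these values describe 9 libraries in 3 clusters.

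Markers of other cells moved in the same libraries. Fibroblast and mesenchyme markers with no matrix gene among them rose in 10 of 15 genes tested and fell in 2 in CD90+ against CD38+ control cells. They fell in 11 and rose in 2 with GATA2 overexpression. PDGFRB and CDH11 are examples from the side of most of these genes. PDGFRB averaged 1.62, 17.4 and 5.74 CPM for CD38+ cells, CD90+ controls and GATA2 overexpression. CDH11 averaged 0.0601, 15.8 and 2.35 CPM in the same order. Of the 17 markers, 7, 13 and 9 reached 1 CPM, and TWIST2, TCF21 and MEOX2 had 0 counts in CD38+ cells. Their summed level did not follow, at 690 to 706, 444 to 461 and 474 to 546 CPM per library, since S100A4, which leukocytes also express, made up most of it. Their part in the matrix levels was not tested.

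Macrophage markers ran from 2906 to 2921 CPM in sum in CD38+ control libraries, 2067 to 2110 CPM in CD90+ control libraries and 536 to 597 CPM with GATA2 overexpression. Between the control groups the sum did not stand for the list, as 6 of 12 genes rose and 5 fell (median log2 fold change 0.59). LYZ and CD14, which carried much of the sum, were lower in CD90+ control cells (1624 to 359 and 344 to 29.6 CPM). C1QA, C1QB, CSF1R and MRC1 were higher there (9.50 to 150.3, 0.778 to 134, 416 to 1068 and 27.8 to 113 CPM). With GATA2 overexpression 11 of 12 fell and 0 rose, CD163 to 1.44 CPM from 51.0 CPM, in the libraries in which TGFBI and FN1 were at 16.1% and 15.5% of control. Megakaryocyte and platelet markers summed to 537 to 543, 2554 to 2589 and 4011 to 4126 CPM in the same order, none at 0 in any group. Cardiac muscle, smooth muscle and cartilage markers rose in 8 of 9, 6 of 7 and 6 of 6 genes in CD90+ against CD38+ control cells, and fell in 7, 6 and 6 with GATA2 overexpression. Cartilage markers were scarce, at 12.96 to 14.04 CPM in sum in CD90+ control libraries, and SOX9, ACAN, MATN3 and SOX5 had 0 counts in CD38+ cells. Hepatic and endoderm markers summed to 23.5 to 26.3, 313 to 316 and 112 to 124 CPM. They rose in 9 of 13 genes and fell in 3 in CD90+ against CD38+ control cells. With GATA2 overexpression they fell in 11 and rose in 0. ALB was scarce and highest in CD38+ cells, at 0.573, 0.297 and 0.114 CPM in the same order. FGA had 0 counts in CD38+ cells, as did MYH7, MYOCD, EMCN, AHSP and CMA1 of the cardiac, smooth muscle, endothelial, erythroid and mast cell lists. Endothelial markers rose in 10 of 13 and fell in 1, and with GATA2 overexpression rose in 8 and fell in 4. Epithelial markers rose in 8 of 9 and then fell in 8 of 9. Erythroid markers summed to 210 to 219, 825 to 850 and 418 to 499 CPM, and mast cell markers to 1564 to 1604, 41.2 to 43.2 and 89.3 to 96.4 CPM. The part of these cell types in the matrix levels was not tested.

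The other genes of the matrix were followed in 8 lists, which hold none of the 10 genes. The lists were also chosen with earlier results of these data known, so their counts are a description. HAPLN2, with 0 counts in CD38+ cells, passed the filter on low counts only through the CD90+ libraries. Such a gene can rise in CD90+ control cells but not fall. How many such genes each list holds was not counted, and they can add to the rises given below. Between the control groups 41.1% of all genes tested rose and 39.3% fell. A list near these shares does not stand apart, and distance from them was not tested. In CD90+ against CD38+ control cells, other matrix glycoproteins rose in 53 of 75 genes tested and fell in 16. Their median log2 fold change was 2.60, against 0.03 over all genes. CYR61 rose 45.5-fold to 119 CPM, while THBS1 (thrombospondin-1) and SPP1 (osteopontin), both made by macrophages, fell 5.65-fold and 5.31-fold. Other extracellular proteoglycans rose in 10 of 20 and fell in 6 (median 0.66). With at least 1 CPM in 3 libraries, where fewer genes are tested, 6 rose. HSPG2 (perlecan, of basement membranes) rose 2.02-fold, whereas SRGN (serglycin, the granule proteoglycan of blood cells) fell 5.47-fold from 3313 to 606 CPM and PRG2 (an eosinophil granule protein) fell 5.77-fold. The proteoglycans that fell thus included the granule forms of blood cells, beside VCAN. Cell-surface proteoglycans rose in 10 of 17 and fell in 5 (median 2.57). GPC3 (glypican-3) rose 457-fold to 68.9 CPM, a fold that rests on 17 counts in all over the CD38+ libraries. CD74 rose 5.92-fold, and CD44, the hyaluronan receptor, fell 2.19-fold.

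Enzymes, inhibitors and receptors moved in both directions. Crosslinking and assembly enzymes rose in 11 of 22 and fell in 7 (median 0.41), not far from the shares over all genes, with CRTAP and P3H2, which act in prolyl hydroxylation of collagen, up 2.19-fold and 7.26-fold, and BMP1, the procollagen protease, down 4.18-fold. Matrix proteases rose in 26 of 41 and fell in 14 (median 1.16). MMP2 (gelatinase A) fell 20.9-fold from 805 to 38.4 CPM, ADAMTS14 fell 67.5-fold and MMP25, a leukocyte membrane protease, fell 25.9-fold, while ADAMTS1 rose 8.47-fold. Protease inhibitors rose in 8 of 13 and fell in 4 (median 0.92), with A2M and CST3 up 8.21-fold and 2.29-fold and TIMP1 down 4.34-fold. Matrix receptors rose in 18 of 30 and fell in 9 (5 with library size only; median 0.39), with the scavenger receptor CD36 up 17.6-fold, ITGB5 up 4.77-fold and CD47 down 2.09-fold.

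Genes for hyaluronan and glycosaminoglycan synthesis were the only list of the 8 with more falls than rises in this comparison. The list also holds hyaluronan-degrading enzymes. They fell in 23 of 37 and rose in 9 (median -0.53), or in 18 and 13 with library size only (median -0.12). CHST11, which sulphates chondroitin, fell 4.66-fold, HS6ST1, which sulphates heparan, 4.68-fold and HYAL3, of the hyaluronidase family, 8.68-fold, while UST rose 5.04-fold. Adjusted p-values of the genes named for the 8 lists in this comparison ranged from 1.05e-22 for MMP2 to 6.51e-08 for HSPG2 (edgeR).

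With GATA2 overexpression against control CD90+ cells 39.6% of all genes fell and 38.0% rose (median -0.04). All 8 lists also had more falls than rises, a direction shared with all genes and no result on its own. Other matrix glycoproteins fell in 56 of 75 genes and rose in 13 (median -1.27). SPP1 fell 24.1-fold from 570 to 23.6 CPM, THBS1 fell 2.18-fold and EMILIN2 2.64-fold, while EMILIN1, an elastic fibre protein, rose 3.33-fold. Extracellular proteoglycans fell in 13 of 20 and rose in 2 (median -0.77). They fell in 7 with at least 1 CPM in 3 libraries, where fewer genes are tested. They rose in 1 with library size only or without CD90+ control replicate 2. FMOD (fibromodulin) was down 4.40-fold, from 7.72 to 1.75 CPM, and PRG2 was up 5.71-fold. Cell-surface proteoglycans fell in 14 of 17 and rose in 2, or 1 with library size only (median -1.91), with NRP1 down 16.2-fold, CD74 7.93-fold and GPC3 4.93-fold, and GPC2 up 1.95-fold.

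Matrix proteases fell in 30 of 41 and rose in 5 (median -1.31). MMP9 (gelatinase B) fell 28.1-fold from 114 to 4.07 CPM, MMP19 5.80-fold and the urokinase gene PLAU 3.36-fold, and CTSK, a collagen-degrading cathepsin, rose 2.55-fold. Their inhibitors fell in 9 of 13 and rose in 4 (median -0.81), with A2M down 126-fold and SERPINF1 3.92-fold, and TIMP3 up 2.37-fold to 828 CPM. Matrix receptors fell in 20 of 30 and rose in 7 (median -1.08). CD36 fell 152-fold, and STAB1 and LYVE1, endocytic and hyaluronan receptors of macrophages and endothelium, 30.1-fold and 14.9-fold, while the platelet integrin gene ITGA2B rose 2.03-fold.

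The enzyme lists for crosslinking and for sugar chains were the most evenly divided with GATA2 overexpression, not far from the shares over all genes. Of the crosslinking and assembly enzymes 11 of 22 fell and 8 rose (median -0.10), or 14 and 7 with library size only (median -0.35). F13A1 and TGM2, both transglutaminase genes, fell 3.83-fold and 2.49-fold, and CRTAP rose 1.67-fold. Genes for hyaluronan and glycosaminoglycan synthesis fell in 17 of 37 and rose in 14 (median -0.22), or in 20 and 11 with library size only. HYAL3, the hyaluronidase relative, rose 4.67-fold, and DSE, the dermatan sulphate epimerase that modifies the chains of decorin and biglycan, fell 2.56-fold. CSGALNACT2 fell 1.86-fold. Adjusted p-values of the genes named for these lists ranged from 4.23e-22 for SPP1 to 9.78e-06 for GPC2 (edgeR).

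**Figure D5:**
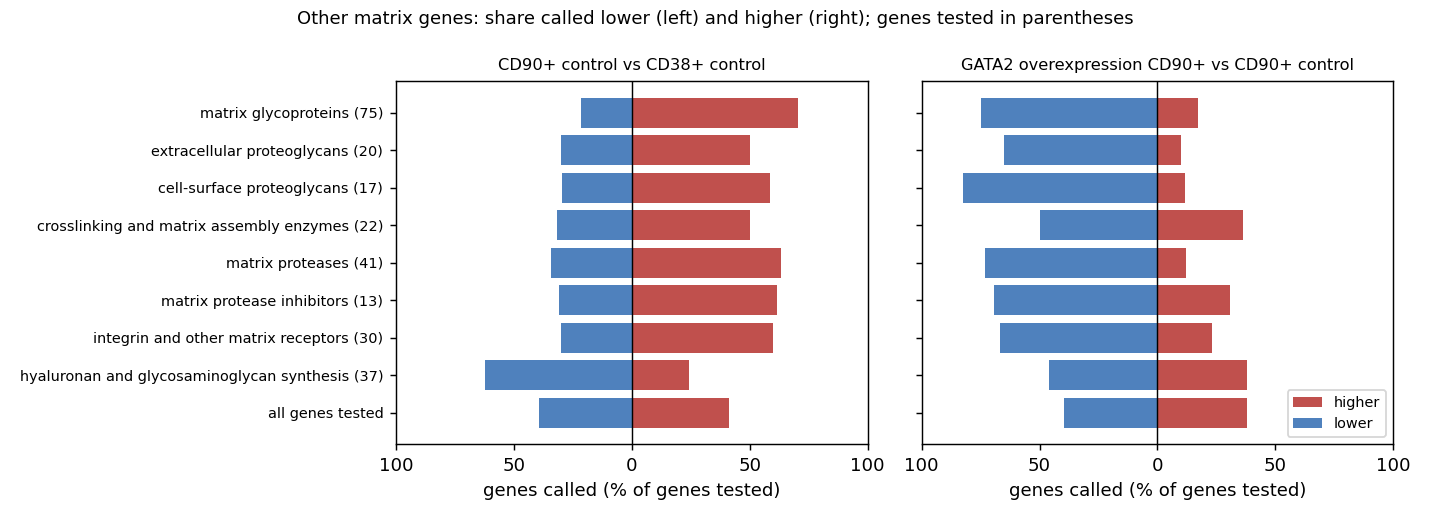
Share of genes tested that were called lower (left, blue) and higher (right, red) by edgeR in each of the 8 matrix lists and among all genes tested, for CD90+ against CD38+ control cells and for GATA2 overexpression against control CD90+ cells. Matrix glycoproteins lean to the right in the former (53 of 75 higher) and to the left in the latter (56 of 75 lower).

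In GATA2 overexpression CD90+ against CD38+ control cells, which share their samples with the other comparisons, 43.3% of all genes rose and 39.9% fell (median 0.07). Other matrix glycoproteins rose in 45 of 75 and fell in 21 (median 1.63, or 1.11 with genes at 0 set to their bound). Extracellular and cell-surface proteoglycans rose in 8 of 20 and 8 of 17 and fell in 6 and 8 (medians -0.36 and 0.67). With the 2 groups only they rose in 4 and 5, and with at least 1 CPM in 3 libraries the extracellular forms rose in 5. Fewer genes are tested under these settings. Crosslinking enzymes rose in 11 of 22 and fell in 8, proteases rose in 18 of 41 and fell in 17, close to the shares over all genes, inhibitors rose in 5 of 13 and fell in 7, and receptors rose in 11 of 30 and fell in 14. Hyaluronan and glycosaminoglycan synthesis genes fell in 24 of 37 and rose in 12.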

How the data were processed

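The authors deposited raw read counts for 21229 gene symbols, 80 of them at 0 throughout. The tools named are HISAT2 and featureCounts, with build hg38, per the submitters' processing notes. Their versions, the annotation and the strand setting of counting are not stated in what was used here. The 10 genes, the 8 lists and the tests were chosen with earlier results of these data known.

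All 9 libraries entered edgeR 4.0.16 (R 4.3.3), with TMM factors, filterByExpr (minimum count 10, minimum total 15), group means and glmQLFTest. A gene was called where p, adjusted by Benjamini-Hochberg over the 16232 genes tested, was under 0.05. The SE of a log2 fold change is its size over the root of the F statistic. Folds against a group with 0 counts are bounds from 3 counts over that group, and with 1 to 3 counts a ratio with a Clopper-Pearson 95% interval is given. Intervals and floors cover counting error only. Replicates differed beyond sampling noise (chi-square per degree of freedom 3.96 to 7.84). Of 279 list symbols, 275 matched the table, 5 of them by synonym, and 4 were not analysed here. From each list up to 3 called genes of at least 5 CPM with the lowest adjusted p were named, plus 1 in the other direction, beside paralogues and neighbours of the 10 genes, and for each of the 10 the 3 genes of like pattern. List genes this rule names for GATA2 overexpression CD90+ against CD38+ control cells are not printed for that comparison, and a further gene is not reported here. SRFBP1 was added after its values were seen. Positions and merged exon lengths are from GENCODE release 29 (GRCh38). Fits were first tested on simulated data. Alternatives were RLE factors, library size only, no filter, at least 1 CPM in 3 libraries, DESeq2 1.42.0, the 2 groups compared only, a replicate block, leaving out each library, and the longest transcript as gene length.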

Additional observations from a re-analysis of the deposited data

How the results depend on the processing

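Counts of called genes stayed within 1.5 times of 13056, 12601 and 13498 in the 3 comparisons under every alternative run, and leaving out a library gave 12713 to 12924, 12142 to 12439 and 13279 to 13411. The replicate numbers did not pair the libraries (no correlation of same-numbered deviations above 0.0327), and with a replicate block 12889, 12384 and 13347 genes were called. With library size only the median of all genes moved by 0.41, -0.25 and 0.16 (log2) and 71.2%, 35.6% and 58.0% of calls were on the higher side, against 51.2%, 49.0% and 52.1%, and the summed level of the 10 genes became 290, 1369 and 675 CPM in CD38+ control, CD90+ control and GATA2 overexpression cells. Leaving out a library gave 327 to 334, 1174 to 1181 and 686 to 693 CPM. With the longest transcript as gene length the sums of 56.6, 238 and 142 CPM per kilobase became 79.3, 296 and 177, and 4, 2 and 2 of the 10 genes changed rank.

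Of the 10 genes, TGFBI in CD90+ against CD38+ control cells changed sign, to log2 fold changes of 0.0336 with RLE factors and with DESeq2, 0.3952 with library size only, 0.0003 with no filter, 0.0674 with at least 1 CPM in 3 libraries and 0.0447 with these 2 groups only, and ranged from -0.0434 to 0.0115 when a library was left out, above 0 without CD38+ control replicate 3 or CD90+ control replicate 3. LOXL3 and LOXL4 changed sign in that comparison with library size only, to 0.0304 and 0.1081. Called extracellular proteoglycans dropped to 9 from 15 for GATA2 overexpression against control CD90+ cells with at least 1 CPM in 3 libraries, and to 9 from 14 against CD38+ cells with the 2 groups only, where fewer genes are tested. Low counts limit BGN, DCN, HAPLN1 and POSTN in CD38+ cells.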
